A study of Pimephales promelas with 80 samples.

Results

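The 100 most abundant transcripts of fathead minnow larvae are the 100 genes with the highest mean count per M reads (CPM) over 10 unexposed control larvae, out of 26150 genes in the count table. The control values alone chose them, so their levels in controls are given as a description with no test. These 100 genes are 0.382% of the genes in the table, and in controls they held 31.0% ± 1.29 of all counts in genes (SD, n = 10). All 100 passed the filter on low counts, as did 21599 genes in all. CPM here is a gene's count divided by the library's total count in genes and multiplied by 10 to the power of 6. It is not divided by gene length, so the order of genes is an order of reads and not of molecules.

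The fathead minnow (Pimephales promelas) is a small freshwater fish used in toxicity tests. RNA-seq was made from the whole bodies of 80 single larvae, 1 library per fish, after a day without food in plate wells that all held a little DMSO as solvent. Of these, 30 larvae were exposed to 6PPD, an antioxidant added to tire rubber, at 0.00848, 0.0268, 0.0848, 0.268, 0.848 or 2.68 mg/L. Another 40 were exposed to 6PPD-Q, the quinone that 6PPD becomes by oxidation, at 0.00277, 0.00878, 0.0277, 0.0878, 0.277, 0.878, 2.77 or 8.78 mg/L. Each dose had 5 larvae, and the 10 controls served both chemicals. Embryos of several crosses were mixed as larvae before sorting to wells. The labels place 77 libraries on plate C and 3 on plate A, which are control replicates 1 and 2 and replicate 1 at 2.68 mg/L 6PPD. The labels do not agree on whether their age is counted from hatching or from fertilization, so no age is given. The purpose stated for the series is to learn if these chemicals change larval gene expression, and what that can tell of the unequal sensitivity of fish species to 6PPD-Q, which is known for killing coho salmon.

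In a whole larval fish a small set of genes usually takes a large part of the messenger RNA. Such genes typically encode contractile and energy proteins of swimming muscle, ribosomal proteins and elongation factors, keratins of the skin, crystallins of the eye lens and proteins of the blood, pancreas and mitochondria. Because counts are read as shares of a library, a rise or fall of such genes also shifts the share left for every other gene. The identifiers of the files carry no gene names, and 0 of 26150 matched the supplied RefSeq table. No role is therefore given to any gene below, tissue markers could not be looked up, and each gene is called by its rank of mean CPM in controls.

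In controls the levels fell steeply with rank. Rank 1 averaged 32223 ± 3994 CPM, which is 3.22% of all counts in genes and 2.10 times the level of rank 2. Rank 2 averaged 15336 ± 1542 CPM, rank 3 averaged 11364 ± 1149 CPM, rank 4 averaged 8392 ± 1583 CPM and rank 5 averaged 8264 ± 1172 CPM (SD, n = 10 each). Ranks 4 and 5 thus differed by less than the spread between control fish. Of the 100 genes, 3 lay above 10000 CPM and 43 below 2000 CPM, and the first 21 held 50% of the summed share. As many as 557 genes were needed for 50% of all counts in controls. At the lower end ranks 99 and 100 averaged 1051 and 1013 CPM, just inside the limit, and the next 2 genes averaged 1012 and 1008 CPM, just outside it. The limit therefore parts genes whose levels overlap between fish: rank 100 spanned 721 to 1321 CPM and rank 101 spanned 740 to 1370 CPM in controls.

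**Figure D1:**
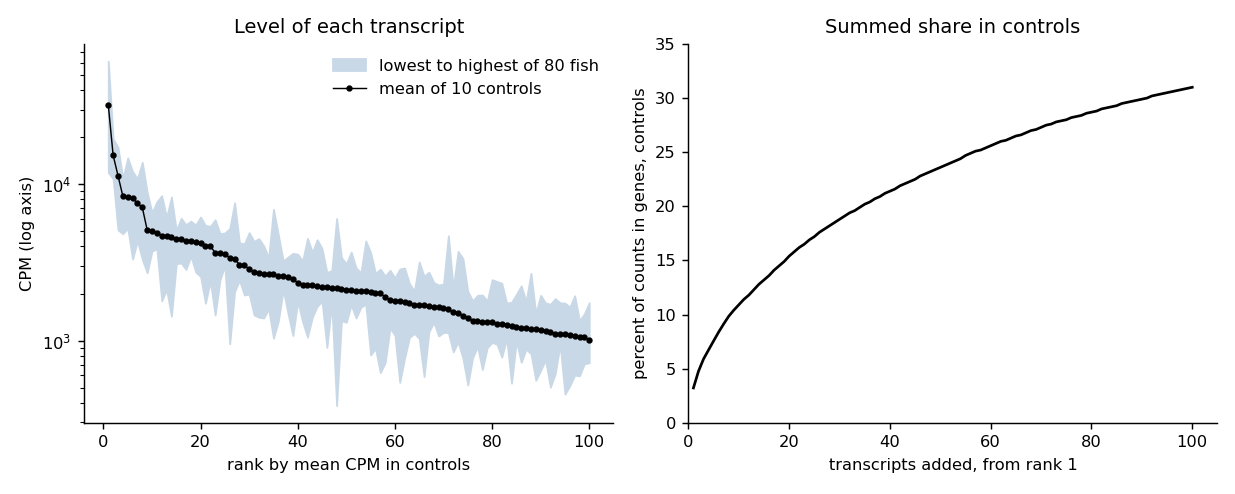
Left, CPM on a log axis against rank for the 100 transcripts, with the mean of 10 controls as points and the lowest to highest of 80 fish as the shaded band; right, the summed share of counts in genes in controls as transcripts are added from rank 1. Rank 1 stands at 32223 CPM and the summed curve reaches 31.0% at rank 100.

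Much the same genes were the most abundant at every dose. Of the 100, between 91 and 98 were also among the 100 most abundant genes of each of the 14 doses, and 83 were so in all 15 groups of fish. In single fish the number was 84 to 97 (median 92), and 57 genes were among the 100 most abundant in each of the 80 fish. Rank 1 was the most abundant gene in all 15 groups and in 77 of 80 fish. At 2.68 mg/L 6PPD, 93 of the 100 kept such a place and 7 did not. One gene that took a place there was far from it in controls. This gene, not one of the 100 and chosen for mention after its values were seen, had 1286, 1328, 1125, 786 and 1325 CPM at 2.68 mg/L 6PPD, against 52.5 to 95.5 CPM in controls, where its rank was 2095. All 5 exposed fish were above every control.

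The first question was whether the summed share of the 100 genes altered with dose. The share was 31.0% ± 1.29 in controls (n = 10). With rising 6PPD dose it was 30.4% ± 2.52, 31.7% ± 1.71, 32.1% ± 1.21, 30.2% ± 1.40, 30.1% ± 0.805 and 28.7% ± 1.68, the last at 2.68 mg/L (SD, n = 5 each). With rising 6PPD-Q dose it was 30.8% ± 1.52, 32.7% ± 3.32, 31.4% ± 1.50, 29.6% ± 2.00, 31.2% ± 1.77, 31.1% ± 2.09, 30.3% ± 2.15 and 30.8% ± 2.25. Of the 14 dose means, the one at 2.68 mg/L 6PPD lay furthest from that of the controls. Between fish of one group the pooled SD was 1.87 points, and between the means of the 15 groups it was 0.985 points.

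**Figure D2:**
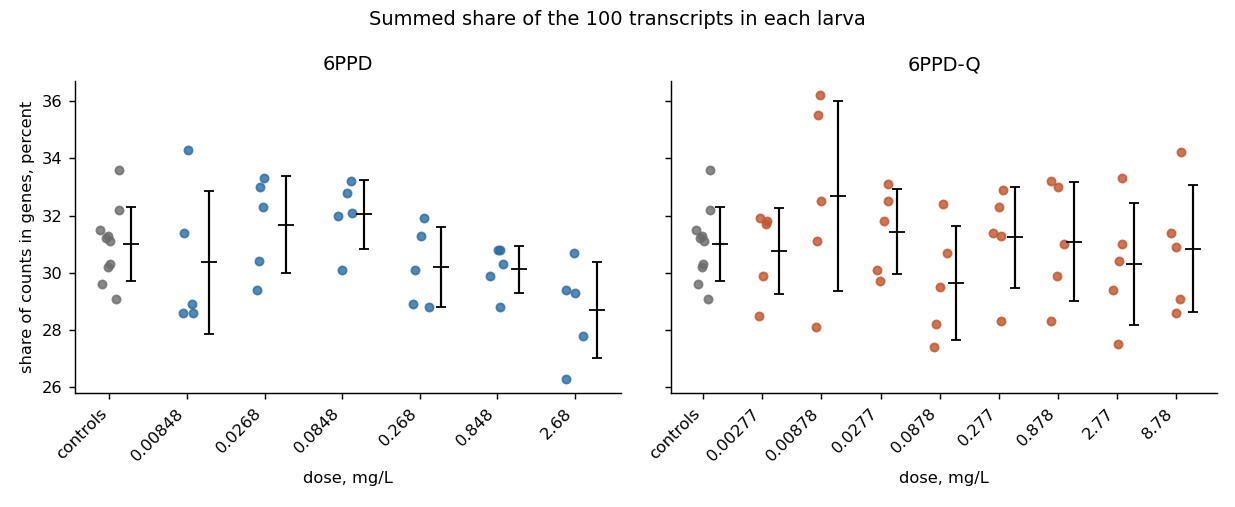
Summed share of the 100 transcripts, in percent of counts in genes, against dose of 6PPD (left) and of 6PPD-Q (right), with 1 point per larva and the group mean ± SD beside it. The 5 larvae at 2.68 mg/L 6PPD lie between 26.3% and 30.7%, and the 10 controls, plotted in both panels, between 29.1% and 33.6%.

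The 5 larvae at 2.68 mg/L 6PPD had shares of 27.8%, 26.3%, 29.3%, 30.7% and 29.4%, against 29.1%, 31.2% and 33.6% as the lowest, median and highest of the 10 controls. The fish of the groups overlapped, with 2 exposed larvae below every control. Genes chosen by their control values can drift lower in any other fish, so the test used genes that the compared fish did not choose. For each dose the 100 genes with the highest mean CPM over the exposed fish of all other doses were taken, of which 97 were among the 100 described here. On those genes the share was 28.7% ± 1.66 at 2.68 mg/L 6PPD and 31.0% ± 1.25 in controls, a difference of -2.32 points (95% interval -3.97 to -0.690). An exact permutation test (two-sided) gave p = 0.00799, which became 0.112 after Benjamini-Hochberg adjustment over the 14 doses and so did not pass 0.05. The call depended on the number of genes: with 200 genes in place of 100 the difference was -2.84 points (exact permutation, adjusted p = 0.0326). It also passed when 6PPD 2.68 mg/L replicate 4 was left out (-2.81 points, adjusted p = 0.0280) or control replicate 7 (-2.52 points, adjusted p = 0.0490). For the rest of the 15 fish, left out 1 at a time, it did not pass (exact permutation, adjusted p up to 0.532). The difference was smallest without 6PPD 2.68 mg/L replicate 2, at -1.73 points. For the other 13 doses the adjusted p was at least 0.532. For 8.78 mg/L 6PPD-Q, the highest dose, the difference from controls was -0.0254 points (exact permutation, adjusted p = 0.978).

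At 2.68 mg/L 6PPD the mean share was lower than in controls in each band of ranks, given here as a description. Rank 1 held 2.88% ± 0.553 of counts in exposed larvae and 3.22% ± 0.399 in controls. Ranks 2 to 5 held 3.75% ± 0.434 in exposed larvae and 4.34% ± 0.334 in controls. Ranks 6 to 20 held 7.34% ± 0.568 in exposed larvae and 7.80% ± 0.624 in controls. In these bands the fish of both groups overlapped. Ranks 21 to 50 held 7.89% ± 0.305 in exposed larvae and 8.26% ± 0.315 in controls. Ranks 51 to 100 held 6.72% to 6.98% in the 5 exposed larvae and 7.21% to 7.59% in the 10 controls, with no overlap. By gene, 70 of the 100 had a lower mean CPM than in controls and together lost 3.31 points of share, whereas 30 had a higher mean and together gained 1.01 points. High control values chose these genes, which favours lower values in other fish in each band and gene. In the edgeR fit 69 of the 100 had a log2 fold change below 0, and 49.4% of all tested genes had one above 0. Rank 1 alone accounted for -0.346 points and ranks 1 to 5 for -0.936 points.

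Within the exposed fish of a chemical the share was also set against dose level, numbered from 1 at the lowest dose. The slope was -0.421 points per level over the 30 larvae of 6PPD and -0.128 points per level over the 40 larvae of 6PPD-Q. A permutation test (two-sided, 100000 resamples) gave p = 0.0322 for 6PPD, adjusted over both chemicals to 0.0644, and an adjusted p of 0.386 for 6PPD-Q. Neither slope passed 0.05. The 6PPD slope passed when any of 3 larvae at 0.00848 mg/L (replicates 1, 4 and 5) or replicate 2 at 0.0268 mg/L was left out, with adjusted p between 0.0188 and 0.0476. For the rest of the 30 larvae, left out 1 at a time, it did not pass (permutation, adjusted p up to 0.187). The slope was least steep without replicate 2 at 2.68 mg/L, at -0.321 points per level.

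The nearest doses of the chemicals, which differ by 3.31% to 3.57%, allowed 6 comparisons of 6PPD-Q with 6PPD. At 2.77 mg/L 6PPD-Q the 5 shares were 30.4%, 31.0%, 27.5%, 29.4% and 33.3%, against 27.8%, 26.3%, 29.3%, 30.7% and 29.4% at 2.68 mg/L 6PPD. The fish of the groups overlapped, and the difference was 1.62 points (95% interval -1.29 to 4.36). From the lowest pair up, the other differences were 2.33, -0.237, -2.43, 1.03 and 0.917 points. Exact permutation tests (two-sided), adjusted over the 6 pairs, gave p between 0.381 and 0.778, where 5 fish against 5 allow no p below 0.00794. The intervals of all 6 pairs hold 0 and reach at least 2 points on one side, so the tests did not exclude a difference of that size between the chemicals.

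The share differed mostly between fish of the same dose. The lowest of the 80 larvae had 26.3% and the highest 36.2%. That highest larva was at 0.00878 mg/L 6PPD-Q, where the 5 fish had 32.5%, 28.1%, 36.2%, 31.1% and 35.5%. Deviations from the dose means in the 70 exposed larvae went with the percent of reads that fell outside any annotated gene. Those reads are not in the denominator of the share. Pearson's r was -0.846 and Spearman's rho was -0.832 (permutation within doses, adjusted p = 4.00e-05 for each over 4 measures, the smallest these resamples can give). Without the 2 fish farthest from the median, r was -0.823. In the 69 exposed larvae of plate C r was -0.846, and the 1 exposed larva of plate A gave no value of its own. The slope was -1.27 points of share per point of reads outside genes. For the other measures r was -0.518 with the number of genes detected (adjusted p = 3.00e-04), 0.0475 with the total count in genes (adjusted p = 0.714) and 0.105 with the plate row (adjusted p = 0.617). Plate row entered as its number from 1 to 8, so this r shows only a steady rise or fall over the rows. As a description, larvae of row 5 had shares of 27.5% to 30.1%. Those of row 7 had shares of 31.1% to 36.2%, with no overlap, and both rows held several doses. Reads outside genes took 10.4% ± 0.923 at 2.68 mg/L 6PPD, 11.5% ± 1.25 at 2.77 mg/L 6PPD-Q and 10.4% ± 0.774 in controls. Over the plate rows, these reads reached 13.5% in row 5 and ran from 7.73% to 11.5% in row 7. Most larvae of row 5 were above every larva of row 7. Neither row held a control or a larva at 2.68 mg/L 6PPD. Plate row was not removed from the r of -0.846, so this r cannot part differences between fish from differences between rows. What sets the reads outside genes in a fish was not tested.

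**Figure D3:**
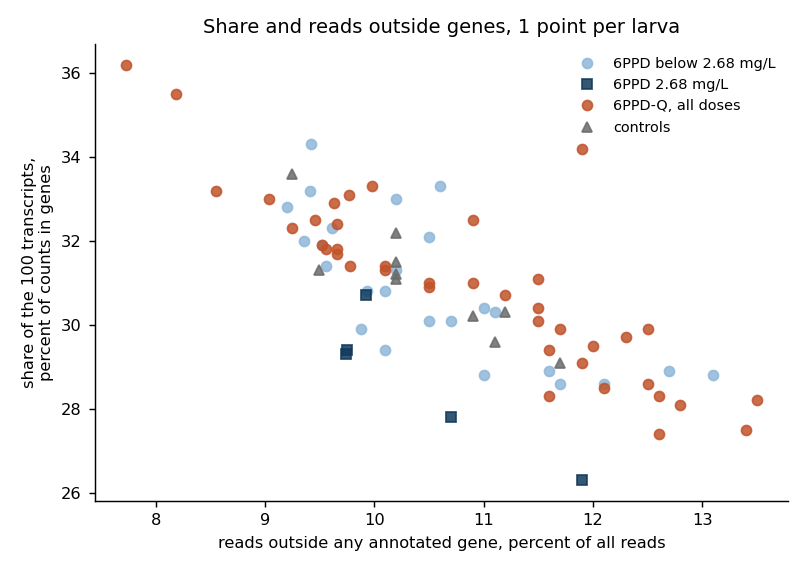
Summed share of the 100 transcripts, in percent of counts in genes, against the percent of all reads outside any annotated gene, with 1 point per larva for 6PPD below 2.68 mg/L, 6PPD 2.68 mg/L, 6PPD-Q at all doses and controls. The share falls from left to right. Of the 5 larvae at 2.68 mg/L 6PPD, with shares of 26.3% to 30.7%, all but replicate 4 lie along the lower edge of the points. Replicate 4, at 30.7%, lies above some other larvae with similar reads outside genes.

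With the percent of reads outside genes as a term, an alternative chosen after seeing the data, 3 comparisons and 1 slope passed 0.05. At 2.68 mg/L 6PPD the difference from controls became -2.37 points (permutation test, adjusted p = 0.00357), and 6PPD-Q at 2.77 mg/L exceeded 6PPD at 2.68 mg/L by 3.39 points (adjusted p = 0.00096). The 6PPD slope became -0.450 points per level (adjusted p = 0.00290). At 0.00878 mg/L 6PPD-Q the share was 1.45 points above controls (adjusted p = 0.00252). The 100 genes themselves did not all follow that measure. Across the exposed larvae, 29 of them had r below -0.5 with it and 17 had r above 0.5, beside 6.89% and 17.6% of all tested genes. Ranks 1 and 3 had r of -0.761 and -0.739, rank 2 had 0.131, and rank 71 had 0.700, all as a description.

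Gene by gene, 14 of the 100 passed the test at 2.68 mg/L 6PPD against controls: 4 rose and 10 fell. Of all 21599 tested genes 22.1% passed (12.4% higher and 9.72% lower). The share among the 100 was thus below the background for rises and near it for falls. Their median log2 fold change was -0.08, beside -0.01 over all tested genes, and the median size of the change was 0.15, beside 0.25 over all tested genes. The control fish that chose the genes also enter this test. The test was edgeR's quasi-likelihood test on counts with TMM scaling, and each adjusted p below comes from it, with Benjamini-Hochberg adjustment over all tested genes. In RNA of a whole body, fewer cells of a type and less RNA per cell cannot be told apart.

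Among the genes that rose, rank 71 (FMg007217) had 4692, 2790, 2197, 2431 and 2718 CPM at 2.68 mg/L 6PPD, against 1373, 1601 and 1777 CPM as the lowest, median and highest control. All 5 exposed larvae were above every control, and replicate 1, a plate A library, was far above the others. Exposed over control, its log2 fold change stood at 0.91 ± 0.14 (SE, adjusted p = 2.84e-07) and at 0.66 without replicate 1. Rank 44 (FMg015860) had 4169, 3683, 3121, 3501 and 4416 CPM in exposed larvae, against 1657, 2225 and 2702 CPM in controls. These groups did not overlap either, and the log2 fold change was 0.77 ± 0.10 (adjusted p = 5.23e-09). Rank 11 had 6642, 5657, 6332, 7012 and 7719 CPM in exposed larvae and 4156 to 5642 CPM in controls, again with no overlap, and a log2 fold change of 0.45 ± 0.10 (adjusted p = 5.70e-04). Rank 93 had 1283 to 1858 CPM in exposed larvae and 953 to 1292 CPM in controls, so that 1 exposed larva lay within the controls. Its log2 fold change was 0.49 ± 0.09 (adjusted p = 2.27e-05).

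Among the genes that fell, rank 57 (FMg002827) had 624, 919, 1298, 1467 and 1290 CPM at 2.68 mg/L 6PPD, against 1562, 1983 and 2479 CPM as the lowest, median and highest control. Rank 46 (FMg025102) had 938, 1145, 1312, 1571 and 1188 CPM in exposed larvae, against 1684, 2149 and 2663 CPM in controls. In both genes every exposed larva was below every control, and the log2 fold change was -0.83 ± 0.19 for rank 57 (adjusted p = 5.95e-04) and -0.83 ± 0.18 for rank 46 (adjusted p = 2.81e-04). The groups did not overlap for rank 60, with 1082 to 1429 CPM in exposed larvae and 1543 to 1961 CPM in controls, or for rank 78, with 653 to 972 CPM in exposed larvae and 1060 to 1708 CPM in controls. In the other 6 genes that fell, ranks 23, 33, 42, 56, 61 and 66, at least 1 exposed larva lay within the range of the controls. Rank 61 was at 540, 761, 903, 1348 and 1533 CPM in exposed larvae and 1310 to 2391 CPM in controls, and rank 66 at 588, 946, 888, 1513 and 1005 CPM in exposed larvae and 1329 to 2178 CPM in controls. Over all 100 genes the fish did not overlap in 7, beside 7.50% of all tested genes.

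The other 8 genes that fell had log2 fold changes between -0.79 and -0.51, with adjusted p up to 0.0402. Rank 61 fell by 0.79 and rank 66 by 0.76 on the log2 scale. Rank 42 fell by 0.73, rank 78 by 0.68 and rank 56 by 0.67. Rank 23 fell by 0.60, rank 33 by 0.56 and rank 60 by 0.51. Rank 23 was the weakest of these calls: its adjusted p was 0.0402, and leaving out 1 fish raised it above 0.05 for 7 of the 15 fish, to 0.101 without exposed replicate 1. It was 0.137 without the 3 plate A libraries and 0.0588 with the replicate number as a block, also past 0.05. The block drops the controls whose replicate number no exposed fish has. Rank 42 lost its call without exposed replicate 2 (adjusted p = 0.0547), and rank 61 also lost it without the 3 plate A libraries (adjusted p = 0.0646).

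None of the 5 most abundant genes passed with edgeR at 2.68 mg/L 6PPD. Rank 1 had 23359, 22257, 32686, 34105 and 31388 CPM in larvae at 2.68 mg/L 6PPD, against 25925, 31779 and 41200 CPM as the lowest, median and highest control, and a log2 fold change of -0.15 (95% interval -0.60 to 0.29). Rank 2 had a log2 fold change of -0.13 (-0.34 to 0.09), rank 3 of -0.36 (-0.82 to 0.11), rank 4 of -0.21 (-0.52 to 0.10) and rank 5 of -0.14 (-0.51 to 0.23). All 5 intervals hold 0, and that of rank 3 reaches furthest below it. The 10 genes that fell together gave up 0.815 points of the share and are part of a sum that lost 2.30 points, while the 4 that rose added 0.511 points.

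**Figure D4:**
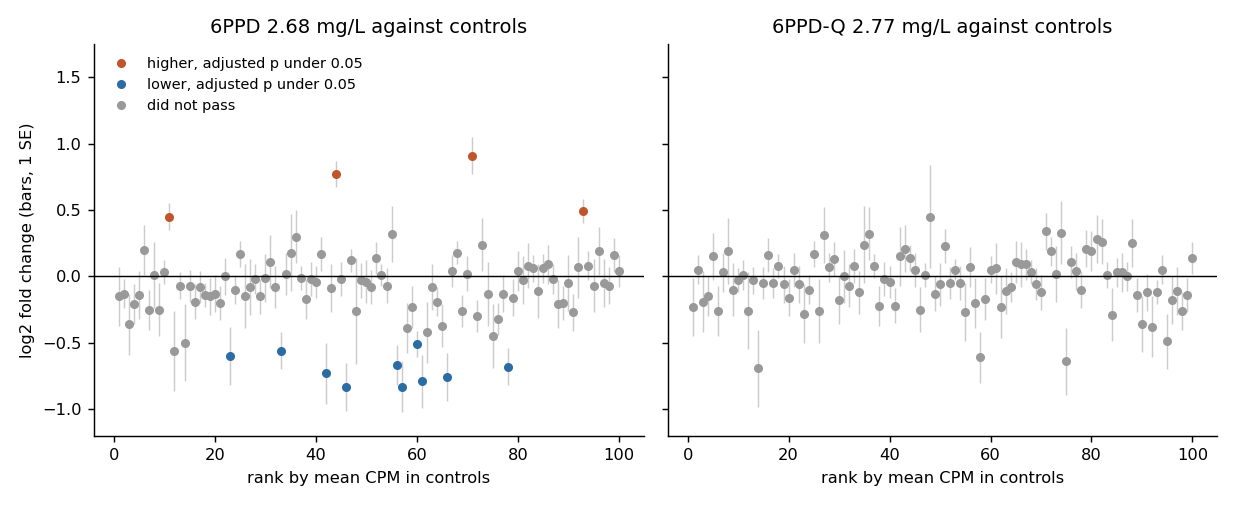
Log2 fold change against controls (bars, 1 SE) for each of the 100 transcripts by rank, at 2.68 mg/L 6PPD (left) and 2.77 mg/L 6PPD-Q (right), with transcripts past an adjusted p of 0.05 coloured. On the left 4 points are higher and 10 lower, the highest at 0.91 and the lowest at -0.83; on the right none passes.

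At lower 6PPD doses and with 6PPD-Q the gene-by-gene test called next to nothing. At 0.848 mg/L 6PPD 0 of the 100 passed, beside 0.880% of all tested genes, and 2 had an unadjusted p under 0.05 with edgeR, beside 8.10% of all tested genes. DESeq2 and limma also called 0. Rank 44 passed there with the plate row as a term, with 2994, 2732, 2379, 2969 and 2978 CPM, against 1657 to 2702 CPM in controls. At 8.78 mg/L 6PPD-Q 0 of the 100 passed with edgeR, beside 0.301% of all tested genes. DESeq2 also called 0, as did limma, which ran without replicate 5 of that dose. At an unadjusted p under 0.05 with edgeR the count at that dose was 19 of 100, beside 13.5% of all tested genes. That count was 4 without replicate 5 of the dose and 8 without replicate 1. It was 9 with the replicate number as a block, which drops controls numbered above 5. At the adjusted threshold, leaving out replicate 4 of that dose gave 3 calls and leaving out replicate 2 gave 1. The share of all tested genes is not given for these refits, so their counts show only how the number depends on the fit.

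Over the other 11 doses 1 gene passed at 1 dose. The share of all tested genes that passed at those doses was 0.00926% at 0.00848 mg/L 6PPD, 0.102% at 0.0878 mg/L 6PPD-Q, 0.0139% at 2.77 mg/L 6PPD-Q and 0.00463% or 0 at the rest but for 0.00878 mg/L 6PPD-Q. Rank 88 had 2086, 949, 2313, 1695 and 2696 CPM at 0.00878 mg/L 6PPD-Q, against 890, 1132 and 1434 CPM as the lowest, median and highest control. Of the 5 exposed larvae 4 were above every control, and the log2 fold change was 0.82 ± 0.18 (adjusted p = 0.0439), where 0.0370% of all tested genes passed. The gene lost its call in 6 of 9 other fits. The adjusted p ran from 0.0114 with DESeq2 to 0.204 with the replicate number as a block, which drops controls numbered above 5. The gene also lost its call when 1 fish was left out for 12 of the 15 fish of that dose and the controls. Without exposed replicate 3 its adjusted p was 0.429. At that dose 80 of the 100 genes were above 0 on the log2 scale, beside 52.4% of all tested genes, with a median of 0.13 beside 0.01. These genes were measured in the same 5 larvae and do not vary independently, so they are not 80 separate rises. Leaving out replicate 2 of that dose, the larva with the lowest share there, gave 6 calls. The share of all tested genes that passed in that fit is not given.

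Of the pairs of nearest doses, the highest gave calls. Between 2.77 mg/L 6PPD-Q and 2.68 mg/L 6PPD, 15 of the 100 genes differed: 11 were higher and 4 lower with 6PPD-Q. Of all 21599 tested genes 19.7% differed, 1879 higher and 2386 lower. The fish of neither group took part in the choice of the 100 genes. Rank 44 had 2128, 2583, 2439, 2923 and 2343 CPM with 6PPD-Q, against 4169, 3683, 3121, 3501 and 4416 CPM with 6PPD, with no overlap, and was lower by -0.63 ± 0.12 on the log2 scale (adjusted p = 3.89e-05). Rank 93 was at 915 to 1204 CPM with 6PPD-Q and 1283 to 1858 CPM with 6PPD, also with no overlap, a log2 difference of -0.60 ± 0.11 (adjusted p = 1.25e-05). Rank 71 differed by -0.57 ± 0.16 (adjusted p = 0.00818) and rank 11 by -0.45 ± 0.12 (adjusted p = 0.00488). The call of rank 71 rested on 6PPD replicate 1, the plate A library far above the other fish: without it the difference was -0.32 (adjusted p = 0.190). Ranks 46 and 57, 2 of the 11 that were higher, also lost their calls without that library (adjusted p = 0.104 and 0.132). Rank 46 also lost its call without 6PPD replicate 2 or 5 or 6PPD-Q replicate 2 or 5 (adjusted p from 0.0512 to 0.0790). Rank 57 also lost it without 6PPD replicate 2 (0.0784) or 6PPD-Q replicate 1 (0.0605). Rank 76, another of the 11, lost it without 6PPD replicate 2 or 3 or 6PPD-Q replicate 1 or 5 (0.0601 to 0.0659).

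Among the 11 that were higher with 6PPD-Q, rank 42 had 1904, 2328, 2588, 2355 and 3481 CPM with 6PPD-Q, against 1627, 1053, 1289, 1107 and 1689 CPM with 6PPD. These fish did not overlap, and the log2 difference was 0.88 ± 0.26 (adjusted p = 0.00880). Rank 61 differed by 0.85 ± 0.22, rank 66 by 0.84 ± 0.20 and rank 56 by 0.74 ± 0.17. Rank 60 had 1598 to 2075 CPM with 6PPD-Q and 1082 to 1429 CPM with 6PPD, a log2 difference of 0.56 ± 0.11 (adjusted p = 1.13e-04). Against controls, none of the 100 passed at 2.77 mg/L 6PPD-Q, where 0.0139% of all tested genes passed and DESeq2 and limma called 0. At an unadjusted p under 0.05 with edgeR the count was 5 of 100, beside 6.72% of all tested genes. Both comparisons use the 5 fish at that dose, so they are not independent of each other. Rank 1 had 29731, 29836, 11905, 27022 and 38807 CPM at 2.77 mg/L 6PPD-Q, and its difference from 6PPD was -0.08 (95% interval -0.58 to 0.43). In the 5 lower pairs 0 of the 100 genes passed with edgeR or DESeq2, while 16, 0, 21, 1 and 4 genes, from the lowest pair up, had an unadjusted p under 0.05. Over all 21599 tested genes the counts at that unadjusted threshold were 1680, 358, 3238, 476 and 1338, in the same order of pairs. At the adjusted threshold 0.00926%, 0, 0.125%, 0.00463% and 0.380% of all tested genes passed in these pairs. In the pair at 0.0878 mg/L 6PPD-Q and 0.0848 mg/L 6PPD, leaving out replicate 1 of 6PPD-Q gave 4 calls, with no share of all tested genes given for that fit.

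A trend with dose level was fitted to each gene over the exposed fish alone, which took no part in the choice. With 6PPD 11 of the 100 genes passed, 4 with a rise and 7 with a fall, beside 12.1% of the 21050 genes tested (8.17% with a rise and 3.91% with a fall). The largest slopes were 0.15 ± 0.03 log2 units per level for rank 71 (adjusted p = 0.00177) and 0.13 ± 0.02 for rank 44 (adjusted p = 2.31e-04) among rises, and -0.16 ± 0.04 for rank 66 (adjusted p = 0.0102) among falls. Without the 5 fish at 2.68 mg/L, 0 of the 100 passed with edgeR, beside 0.273% of the 20900 genes tested there, and 4 had an unadjusted p under 0.05, beside 5.93%. With 6PPD-Q 0 of the 100 passed with edgeR, DESeq2 or limma, beside 0.0894% of the 21261 genes tested, and 7 had an unadjusted p under 0.05, beside 6.88%.

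Between fish of one dose the 100 genes varied by a median SD of 0.253 on the log2 CPM scale (range 0.131 to 0.741), which is a factor of 1.19. The median was 0.313 over all tested genes and 0.237 over 1399 other genes with at least 100 CPM in controls. Counting error was a small part of this, since the lowest count of any of the 100 in any library was 7938, a counting error of 1.12%. With 1 library per fish, differences between fish, between libraries and between plate rows were not parted here. Over the 80 fish the highest level was more than 2 times the lowest in 79 of the 100 genes and more than 4 times in 15.

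Rank 48 was the most variable gene, with an SD of 0.741. It ran from 384 CPM in an 8.78 mg/L 6PPD-Q larva to 6044 CPM in a 0.00878 mg/L 6PPD-Q larva, and in controls from 1301 to 5472 CPM, with 1 control far above the next at 2470 CPM. Next came rank 12 (SD 0.552, 1797 to 8452 CPM over 80 fish), rank 35 (0.548, 1037 to 6927 CPM), rank 14 (0.509, 1432 to 8298 CPM) and rank 74 (0.457, 771 to 3349 CPM). At the other end stood rank 37 (SD 0.131, 2115 to 3226 CPM) and rank 10 (0.133, 3739 to 6574 CPM). Ranks 37 and 10 stayed within 1.53-fold and 1.76-fold over all 80 larvae, exposed fish included. By that ratio, some other genes of the set were steadier than rank 10. Rank 1 had an SD of 0.382 and ran from 11905 CPM to 61283 CPM, both in 6PPD-Q larvae.

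The 100 genes did not vary independently. A principal component analysis of their log2 CPM after removing dose means put 31.3% of the variance on the first axis, 19.4% on the second and 9.02% on the third. On the first axis 63 genes had a positive loading and 37 a negative one, with ranks 3 (0.214), 92 (0.196) and 1 (0.189) on one side and ranks 74 (-0.225), 27 (-0.207) and 82 (-0.189) on the other. The 5 larvae with the highest scores on it had shares of 31.9% to 36.2%, and the 5 with the lowest scores had shares of 27.5% to 28.9%. The share sums these same genes, so this relation is partly built in. Of the 5 lowest, all but 6PPD-Q 0.277 mg/L replicate 3 lay in plate row 5. The 5 highest lay in rows 1, 2, 7 and 8. Over the exposed larvae, ranks 3, 92 and 1 had r of -0.739, -0.875 and -0.761 with reads outside genes. Ranks 74, 27 and 82 had r of 0.694, 0.768 and 0.797. The axis was not parted from plate row or these reads. There are 3 pairs of the 100 genes with consecutive identifiers, which in many annotations marks neighbours on a chromosome, though the files do not say so. Their levels went together over the 70 exposed fish with Pearson's r of 0.477, 0.516 and 0.646 after removing dose means (permutation, adjusted p at most 1.20e-04), and Spearman's rho of 0.435, 0.518 and 0.658 (adjusted p at most 3.90e-04). Without the 2 farthest fish r was 0.386, 0.560 and 0.634. No r of other pairs of the 100 genes is given, and the genes share the axes above. The values therefore do not show that genes with consecutive identifiers go together more than other pairs.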

How the data were processed

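The authors deposited whole-number counts per gene, and the submitters' processing notes name HTSeq 0.13.5 and STAR 2.7.10a among the tools. No build, annotation or strand setting is given in the sources used here. Reads aligned to several places are not in gene counts, so levels of near-identical copies are uncertain. The 5 lines that name no gene were left out of totals. Counts in genes per library were 16.2 to 36.6 M. The authors' deposited log2 tables (48 and 40 libraries), proportional to counts once the log is undone, served as an alternative.

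CPM used column sums. Counts were tested with edgeR 4.0.16 (quasi-likelihood, TMM, filterByExpr, 1 fit of 80 libraries; trends over exposed fish) in R 4.3.3 at an adjusted p of 0.05, and checked on simulated counts. DESeq2 1.42.0 and limma 3.58.1 were alternatives. Shares were compared by exact or 100000-resample permutation. Standard errors derive from the F statistic. Genes named are ranks 1 to 5, up to 10 called each way at 2.68 mg/L 6PPD, those called at 8.78 mg/L 6PPD-Q, the 5 most and 2 least variable, and the 2 genes on each side of the limit at rank 100. Rank 88, the gene of rank 2095, rank 76 and ranks 92, 27 and 82 fall outside that rule and were named after their values were seen. The genes and tests were chosen with earlier results of these data known.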

Additional observations from a re-analysis of the deposited data

Results flagged for a closer look

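In 93 groups of values looked at (the share in each of the 15 groups, and the named genes at 2.68 mg/L 6PPD, at 8.78 mg/L 6PPD-Q and in controls), 6 values of a single fish lay far from the rest of its group. Chance gives about 1 in 20 such groups where the values did not choose the genes. Several genes here were named for their spread or their calls in these same fish, and 3 of the 6 values come from 1 control. The count of 6 in 93 therefore cannot be set against what chance gives. At 2.68 mg/L 6PPD, rank 71 was at 4692 CPM in replicate 1, a plate A library, where the next fish was at 2790 CPM. At 8.78 mg/L 6PPD-Q, rank 78 was at 663 CPM in replicate 5, where the next fish was at 1475 CPM. That library is 1 of 2 with no column in the authors' deposited log2 tables. Control replicate 6 stood apart in 3 genes, with 5472 CPM for rank 48 (next 2470 CPM), 5949 CPM for rank 35 (next 3037 CPM) and 2557 CPM for rank 23 (next 3418 CPM). Control replicate 4 had 14155 CPM for rank 3, where the next control had 12159 CPM.

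A difference between chemicals under the same contrast was met in 15 of the 100 genes, which differed between 2.77 mg/L 6PPD-Q and 2.68 mg/L 6PPD with edgeR. Of all tested genes 19.7% differed there, so the share among the 100 was not above the background.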

How the results depend on the processing

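Against controls, the difference in share at 2.68 mg/L 6PPD stayed negative in every fit and passed with 200 genes (-2.84). When 1 fish was left out it was between -2.81 and -1.73 points (exact permutation, adjusted p from 0.0280 to 0.532). The 6PPD slope was between -0.517 and -0.321 points per level when 1 fish was left out (permutation, adjusted p from 0.0188 to 0.187). It passed with 200 genes (-0.514) and with the plate row as a term (-0.456). With reads outside genes as a term, added after seeing the data, these became -2.37 points and -0.450 per level and passed, as did 1.45 points at 0.00878 mg/L 6PPD-Q and 3.39 points in the highest pair.

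Differences that changed sign had an adjusted p of at least 0.0758 in the fit where they did. With reads outside genes as a term these were 0.134 points (6PPD 0.00848 mg/L), 0.0280 (6PPD 0.268 mg/L), 0.510, 0.992 and 0.947 (6PPD-Q 0.0878, 2.77 and 8.78 mg/L), 0.0723 (pair at 0.0878 mg/L 6PPD-Q) and a 6PPD-Q slope of 0.0287. At 8.78 mg/L 6PPD-Q the difference was 0.275 with 200 genes, 0.967 with TMM-scaled library sizes and 0.0412 without the plate A libraries, and at 0.878 mg/L it was -0.0696 with 50 genes. The pair at 0.0277 mg/L 6PPD-Q gave 0.0816 with all reads as denominator. Leaving out 1 fish gave -0.478 to 0.327 points at 0.00277 mg/L 6PPD-Q, -0.146 to 0.962 at 0.277 mg/L, -0.445 to 0.757 at 0.878 mg/L, -1.31 to 0.108 at 2.77 mg/L, -0.868 to 0.483 at 8.78 mg/L and -0.809 to 0.208 in the pair at 0.0277 mg/L. The causes were not tested.

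Replicate numbers follow the order on the plate within each group and not an animal. Replicate 3 lay in row 2 at 2.68 mg/L 6PPD and in row 7 at 0.00878 mg/L 6PPD-Q. Same-numbered fish did not deviate together on average, but neither this nor the replicate block could show a difference between plate rows. The plate row as a term entered as its number, so it took up only a steady rise or fall over the rows. Over 20 comparisons the mean correlation was -0.0124 between same-numbered fish and 0.00167 between fish of other numbers. Of the same-numbered pairs 17 had a correlation above 0.1, and in 0 of the 20 comparisons did all 5. Replicate numbers above 5 occur only in controls, so with the block these controls drop out of any comparison with a dose. The controls that remain include both of plate A. With the replicate block 14 genes passed at 2.68 mg/L 6PPD and 15 in the highest pair, the same counts as without it. The share of all tested genes that passed with the block is not given. At 2.68 mg/L 6PPD 13 of the 14 were shared, since rank 23 lost its call (adjusted p = 0.0588) and rank 76 gained one, and in the highest pair all 15 were shared. With the block, -0.0999 and -0.289 points at 0.277 and 0.878 mg/L 6PPD-Q changed sign.

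The 14 genes that passed at 2.68 mg/L 6PPD were 12 to 15 when 1 fish was left out, and all 14 were among the 16 called by DESeq2 and the 16 called by limma. The call at the other 11 doses was 0 with column sums, no filter, no plate A libraries, the replicate block, the plate row or limma, 3 with reads outside genes as a term, and 0 to 6 when 1 fish was left out, in all 0 in 28 of 74 alternatives. The 15 genes of the highest pair were 12 to 17 when 1 fish was left out. At 0.848 mg/L 6PPD the plate row as a term gave 1. Leaving out 1 fish gave 0 to 3 at 8.78 mg/L 6PPD-Q and 0 to 4 in the lower pairs. The share of all tested genes that passed is not given here for these other fits, with all fish or without 1. Their counts therefore show only how the calls depend on the fit and on single fish. The 6PPD trend gave 0 without the highest dose, with fewer fish and doses.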
